A study of Mus musculus with 18 samples.

Results

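The 9 genes examined here encode cardiac potassium channels and were chosen by name: 6 that are best known from the ventricle (Kcnh2, Kcnq1, Kcnj2, Kcnd2, Kcnd3 and Kcnip2) and 3 that are best known from the atrium (Kcna5, Kcnj3 and Kcnj5). They are 9 of 21631 protein-coding genes, and a listed region counted as theirs where it overlapped the gene span or the 10 kb on either side (mm10). That rule gave 204 of 621134 listed regions for G9a, 360 of 716658 for H3K9me2, 74 of 504986 for H3K27me3 and 257 of 534606 for Mef2c, and no region belonged to more than 1 of the genes. Kcnj2 had no listed H3K27me3 region, and each of the other genes had at least 1 region in every list.

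The regions come from chromatin immunoprecipitation and sequencing (ChIP-seq) of cardiomyocyte-enriched cells from C57BL/6J mice. KO mice had the genotype G9a flox/flox; alphaMHC-MerCreMer +/-, and Cre mice had alphaMHC-MerCreMer +/- with no floxed G9a allele named, so both groups carried the Cre transgene. Each of the 4 targets had 2 KO and 2 Cre libraries, and each genotype had 1 input library, 18 in all. The Cre is driven by the alpha myosin heavy chain promoter, which is active in cardiomyocytes, so other cells left in an enriched preparation keep G9a. The sources used here give no age, sex or tamoxifen schedule. For each region the authors' deposited lists hold 1 value per library, whose scale is not given, so the values are compared within a list and are not read as counts or depth. A listed region is one that the authors' comparison picked as different, and sequence outside the lists has no value.

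Potassium currents end the cardiac action potential and hold the resting potential of the myocyte. Kcnh2 and Kcnq1 encode the pores of the rapid and the slow delayed rectifier, Kcnd2 and Kcnd3 the pores of the transient outward current, Kcnip2 the accessory subunit that sets the surface level of those pores, and Kcnj2 the main inward rectifier at rest. Kcna5 encodes the pore of the ultrarapid delayed rectifier, and Kcnj3 and Kcnj5 encode the subunits of the acetylcholine-gated inward rectifier. G9a, encoded by Ehmt2, methylates lysine 9 of histone H3 to H3K9me2, a mark of silent chromatin. H3K27me3 is the product of Polycomb repressive complex 2 and marks silent or poised genes, often over promoters rich in CG dinucleotides, and Mef2c is a transcription factor of muscle genes.

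The promoters of 4 of these genes are shown because a listed H3K27me3 region covers each of their starts, as one also does at Kcnj5. RefSeq (GRCm38.p6) promoter sequences, from 250 bases before to 50 after the start and read 5′ to 3′ on the gene's strand, matched 8 of the 9 genes, all but Kcnq1. Capitals mark CG dinucleotides. The windows are chr3:105451640-105451939 (plus strand) for Kcnd3, chr5:24329542-24329841 (minus strand) for the inner start of Kcnh2, chr2:55435720-55436019 (plus strand) for an inner start of Kcnj3 and chr6:126535506-126535805 (minus strand) for Kcna5.
Kcnd3: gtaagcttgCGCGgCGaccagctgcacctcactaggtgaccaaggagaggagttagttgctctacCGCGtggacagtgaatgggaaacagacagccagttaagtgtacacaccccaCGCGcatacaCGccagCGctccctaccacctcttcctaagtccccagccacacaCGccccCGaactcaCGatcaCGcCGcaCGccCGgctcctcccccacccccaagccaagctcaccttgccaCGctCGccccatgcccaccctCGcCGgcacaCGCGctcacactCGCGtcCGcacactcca
Kcnh2: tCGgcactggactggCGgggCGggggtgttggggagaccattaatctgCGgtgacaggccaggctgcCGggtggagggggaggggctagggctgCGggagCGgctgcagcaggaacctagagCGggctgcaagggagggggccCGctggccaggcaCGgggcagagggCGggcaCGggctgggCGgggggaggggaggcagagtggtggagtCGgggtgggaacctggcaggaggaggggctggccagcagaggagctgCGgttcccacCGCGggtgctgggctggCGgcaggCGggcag
Kcnj3: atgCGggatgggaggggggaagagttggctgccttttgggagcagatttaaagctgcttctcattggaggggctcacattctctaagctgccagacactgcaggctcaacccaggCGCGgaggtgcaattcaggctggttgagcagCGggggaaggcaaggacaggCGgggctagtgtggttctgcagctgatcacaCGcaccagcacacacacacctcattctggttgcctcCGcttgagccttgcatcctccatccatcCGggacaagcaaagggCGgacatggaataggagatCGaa
Kcna5: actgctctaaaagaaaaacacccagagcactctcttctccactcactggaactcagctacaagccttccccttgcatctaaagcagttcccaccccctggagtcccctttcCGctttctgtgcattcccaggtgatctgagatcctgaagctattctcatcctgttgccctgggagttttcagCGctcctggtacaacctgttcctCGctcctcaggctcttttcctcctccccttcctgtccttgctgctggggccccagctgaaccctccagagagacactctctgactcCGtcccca
The Kcnd3 promoter holds 25 CG dinucleotides and that of Kcnh2 holds 19, while those of Kcnj3 and Kcna5 hold 10 and 4, beside a median of 7 over 32851 promoters. A count of at least 25 is found in 18.4% of those promoters and a count of at least 4 in 68.6%. No match to the MEF2 consensus, searched by that name on both strands, was found in the 8 promoters, and 3.19% of all promoters of this length hold one.

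H3K27me3 was compared between KO and Cre at each channel gene, and it passed the test as higher in KO at 3 ventricular genes and as lower at 1 atrial gene. The summed listed value of Kcnd3 was 2060 and 2816 in KO, against 1245 and 1175 in Cre. That of Kcnh2 was 1074 and 1402 in KO, against 675 and 508 in Cre. That of Kcnq1 was 1016 and 1308 in KO, against 656 and 547 in Cre. At all 3 genes both KO values lay above both Cre values. By limma over 18733 genes with Benjamini-Hochberg adjustment, the log2 difference (KO minus Cre) was 0.99 for Kcnd3 (SE 0.20, adjusted p = 0.00427), 1.07 for Kcnh2 (SE 0.27, adjusted p = 0.0122) and 0.94 for Kcnq1 (SE 0.27, adjusted p = 0.0205), each from 2 values a genotype. Kcna5, the atrial ultrarapid channel, went the other way, with 6067 and 5251 in KO, against 7044 and 7618 in Cre, a log2 difference of -0.38 (SE 0.13, adjusted p = 0.0442). Over all genes the same test called 1.68% higher and 17.6% lower in KO, and among the 8 channel genes with regions it called 3 higher and 1 lower.

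The sums hold only regions that were listed for differing, which makes these p-values too small, and the calls rest on few libraries. Without the second KO value none of the 8 genes passed, with limma adjusted p of 0.0569 for Kcnd3, 0.0999 for Kcnh2, 0.125 for Kcnq1 and 0.194 for Kcna5. Without the second Cre value Kcnd3 alone passed, with an adjusted p of 0.0108, against 0.0823 for Kcnh2 and 0.110 for Kcnq1. The Kcna5 call was lost whichever of the 4 values was left out (adjusted p 0.0518 to 0.232), and also with the libraries scaled to the same median, where its log2 difference was -0.09 (adjusted p = 0.756), with the gene span alone (0.251) and with 2 kb on either side (0.356). Kcnq1 was lost with the gene span alone (adjusted p = 0.0599) and with regions of a mean value of at least 100 (0.140). The log2 differences of Kcnd3, Kcnh2 and Kcnq1 stayed between 0.75 and 1.42 in every alternative run. Scaling moved the median log2 ratio of all listed H3K27me3 regions by 0.28 toward KO and turned the calls over all genes to 381 higher and 75 lower, against 314 higher and 3288 lower as deposited, with 3 channel genes higher and 0 lower.

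**Figure D1:**
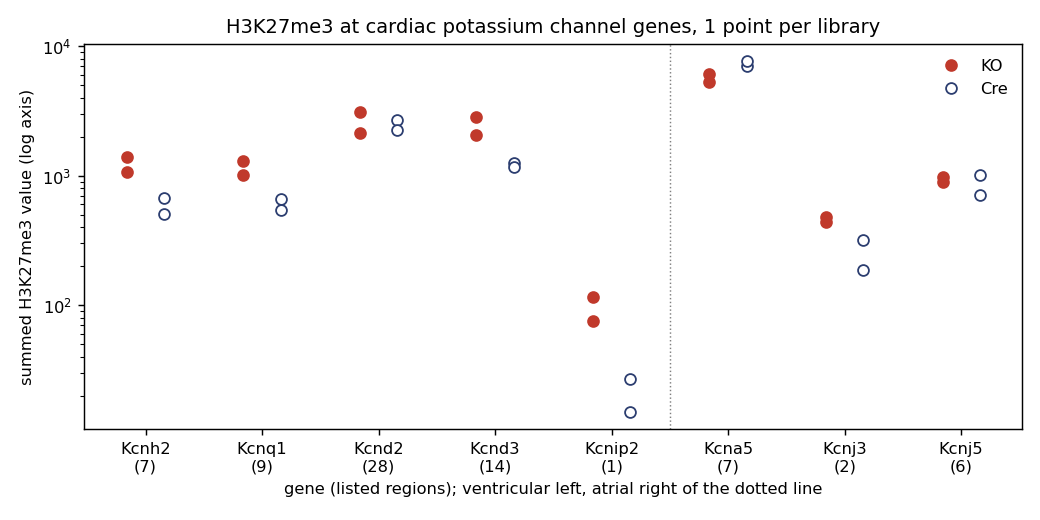
Summed listed H3K27me3 value of 8 channel genes on a log axis, with KO libraries as filled points and Cre libraries as open points, and the number of listed regions under each name. Both KO points lie above both Cre points at Kcnh2, Kcnq1, Kcnd3, Kcnip2 and Kcnj3 and below them at Kcna5, and the genotypes overlap at Kcnd2 and Kcnj5.

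The other 4 genes did not pass. Kcnj3 had summed H3K27me3 values of 436 and 477 in KO, against 318 and 186 in Cre, with a log2 difference of 0.90 (limma adjusted p = 0.121). Kcnip2 had a single region, with 115 and 76 in KO, against 27 and 15 in Cre (log2 difference 2.16, limma adjusted p = 0.169). At both genes the genotypes did not overlap. At Kcnd2 the sums were 2136 and 3108 in KO, against 2678 and 2250 in Cre, and at Kcnj5 they were 973 and 897 in KO, against 708 and 1018 in Cre, and at both genes the genotypes overlapped (limma adjusted p = 0.797 for Kcnd2 and 0.712 for Kcnj5).

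Single regions were counted by direction. Of the 74 H3K27me3 regions of the channel genes, 24 (32.4%) were lower in KO, while 63.3% of the whole list was lower. At ventricular genes 17 of 59 regions were lower and 42 higher, and at atrial genes 7 of 15 were lower and 8 higher. Without Kcna5, the atrial genes had 3 lower and 5 higher. With each of the 9 genes left out in turn, the share lower was lowest without Kcnd2 (23.9%) and highest without Kcnd3 (38.3%). Kcnd3 had 1 lower region of 14, Kcnq1 had 1 of 9 and Kcnh2 had 2 of 7, while Kcnd2, the other transient outward pore, had 13 of 28. Regions of 1 gene share its chromatin, so they are not replicates of a condition, and the difference between the ventricular and the atrial genes was not tested. KO and Cre values did not overlap at 46 of the 74 regions, beside 67.1% of the whole list. At an adjusted p under 0.05 limma called 0 of the 74, and at an unadjusted one 12, beside 0.00119% and 15.3% of all listed H3K27me3 regions.

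Over all genes, the share of a window that listed H3K27me3 regions covered moved with the direction of the difference, in values as deposited. Coverage counts listed regions only, and the mark outside them has no value. Listed H3K27me3 regions covered 79.3% of the Kcna5 window, 11.2% of that of Kcnh2, 9.66% of Kcnj5, 4.52% of Kcnd3, 3.33% of Kcnd2, 1.76% of Kcnq1, 1.13% of Kcnip2 and 1.02% of Kcnj3. Over all genes with under 2% covered, 49.2% had a higher sum in KO, and this share was 42.7% from 2 to 5%, 31.3% from 5 to 12%, 19.5% from 12 to 50% and 8.71% from 50% up. These shares were not computed with scaled libraries. Of the 3181 genes from 50% up, Kcna5 among them, limma called 1025 lower and 21 higher at an adjusted p under 0.05. The part of coverage in the difference between Kcna5 and the other channel genes was not tested. Listed H3K27me3 covered a median of 7.49% of the windows of 6 cardiomyocyte marker genes, against 57.4% for 4 fibroblast, 39.9% for 4 endothelial, 23.4% for 4 immune and 16.9% for 3 smooth muscle markers. Of 15 markers of those other cell types, 14 had H3K27me3 regions, and 12 of these had a lower sum in KO. Over all genes the sum was lower at 13873 of 18733 as deposited and at 9014 with scaled libraries. Without overlap of the genotypes, 11 markers were lower and 1, of smooth muscle, was higher. The share of all genes without overlap is not given here, and the marker values are as deposited. Cd68, an immune marker, had no region. Summed per kb of window, these markers had 1398 and 1340 in KO, against 1659 and 1594 in Cre, while the cardiomyocyte markers had 116 and 161 in KO, against 167 and 103 in Cre, 3 of 6 being higher and 1 lower without overlap. ChIP-seq of a mixed preparation cannot tell fewer cells of a type from less signal per cell, and the part of other cell types in these results was not tested. Per kb of listed region, Kcna5 had H3K27me3 values of 332 and 288 in KO, against 386 and 417 in Cre, while the other genes lay between 120 and 257 in KO, against 30.0 and 212 in Cre.

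**Figure D2:**
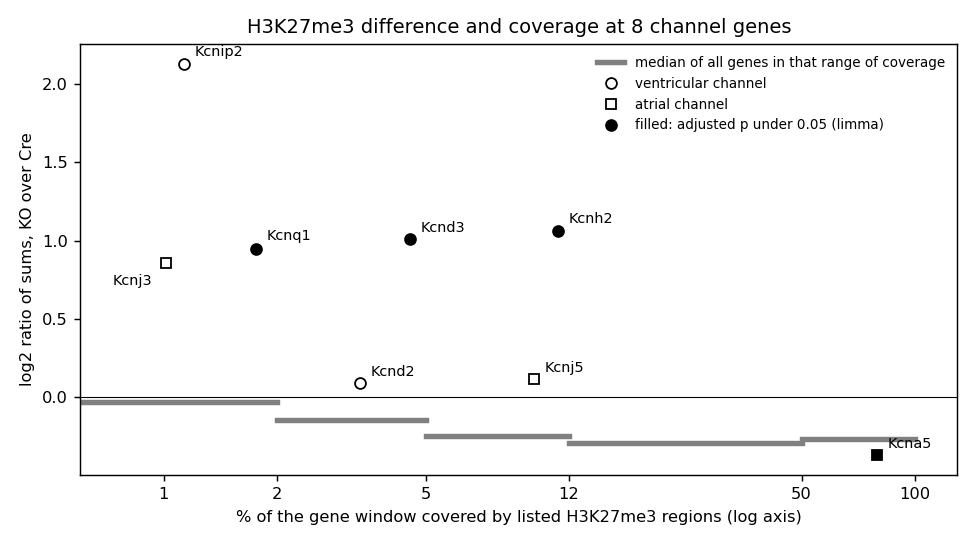
Log2 ratio of summed H3K27me3 values (KO over Cre) of 8 channel genes against the share of the gene window that listed regions cover, on a log axis, with circles for ventricular and squares for atrial genes, filled where the limma adjusted p was under 0.05. Grey lines give the median of all genes in each range of coverage. Kcnq1, Kcnd3 and Kcnh2 lie between 0.95 and 1.06 and Kcna5, the most covered, lies at -0.37.

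At Kcnd3 (gene ID 56543, chromosome 3, 105451890 to 105674002) the start of the gene, the CG-rich promoter shown above, lay in a region of all 4 lists. H3K27me3 over it (105451251 to 105453450) was 720 and 767 in KO, against 497 and 360 in Cre. H3K9me2 (105451201 to 105452200) was 126 and 319 in KO, against 108 and 11 in Cre. Mef2c (105451151 to 105452200) was 163 and 236 in KO, against 120 and 85 in Cre. G9a (105451701 to 105453100) was 140 and 87 in KO, against 242 and 317 in Cre. The genotypes overlapped at none of these 4 regions, with H3K27me3, H3K9me2 and Mef2c higher and G9a lower in KO. A further Mef2c region just inside the gene (105452451 to 105453400) overlapped between the genotypes, with 51 and 220 in KO, against 209 and 171 in Cre. The lncRNA gene Kcnd3os overlaps the same sequence, and ChIP-seq does not say which of the genes a region belongs to. In the authors' deposited list the Kcnd3 H3K27me3 region with the highest -log10 p (21.3) was an inner one, 105667401 to 105668000, with 77 and 182 in KO, against 3 and 30 in Cre. The region 105679051 to 105679600, past the far end of Kcnd3 and within Ddx20, was the 1 of its 14 that was lower, with 33 and 49 in KO, against 79 and 106 in Cre.

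At Kcnh2 (gene ID 16511, chromosome 5, 24319589 to 24351684) the H3K27me3 region over the inner start (24329051 to 24330000) had 281 and 189 in KO, against 119 and 14 in Cre. The region at the higher-coordinate end of the span (24350301 to 24352350) had 420 and 551 in KO, against 311 and 132 in Cre. Both were higher in KO with no overlap of the genotypes. The single G9a region within 2 kb of the inner start (24327551 to 24328550) was also higher, with 223 and 244 in KO, against 172 and 125 in Cre. The lncRNA gene Gm15589 (24311393 to 24338792) overlaps this inner start. It shares 4 H3K27me3 regions with the Kcnh2 window, 2 lower and 2 higher, and ChIP-seq does not say which gene a region belongs to. At Kcnq1 (gene ID 16535, chromosome 7, 143106877 to 143427050) H3K27me3 at the lower-coordinate end (143106251 to 143108100) was 391 and 453 in KO, against 279 and 180 in Cre, and Mef2c there (143106501 to 143107550) was 148 and 220 in KO, against 90 and 114 in Cre. Both pairs were separated in the same direction. Kcnq1ot1, the imprinted antisense lncRNA whose span lies inside Kcnq1 (143213111 to 143296547), held 9 G9a, 16 H3K9me2 and 8 Mef2c regions and 0 of H3K27me3.

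**Figure D3:**
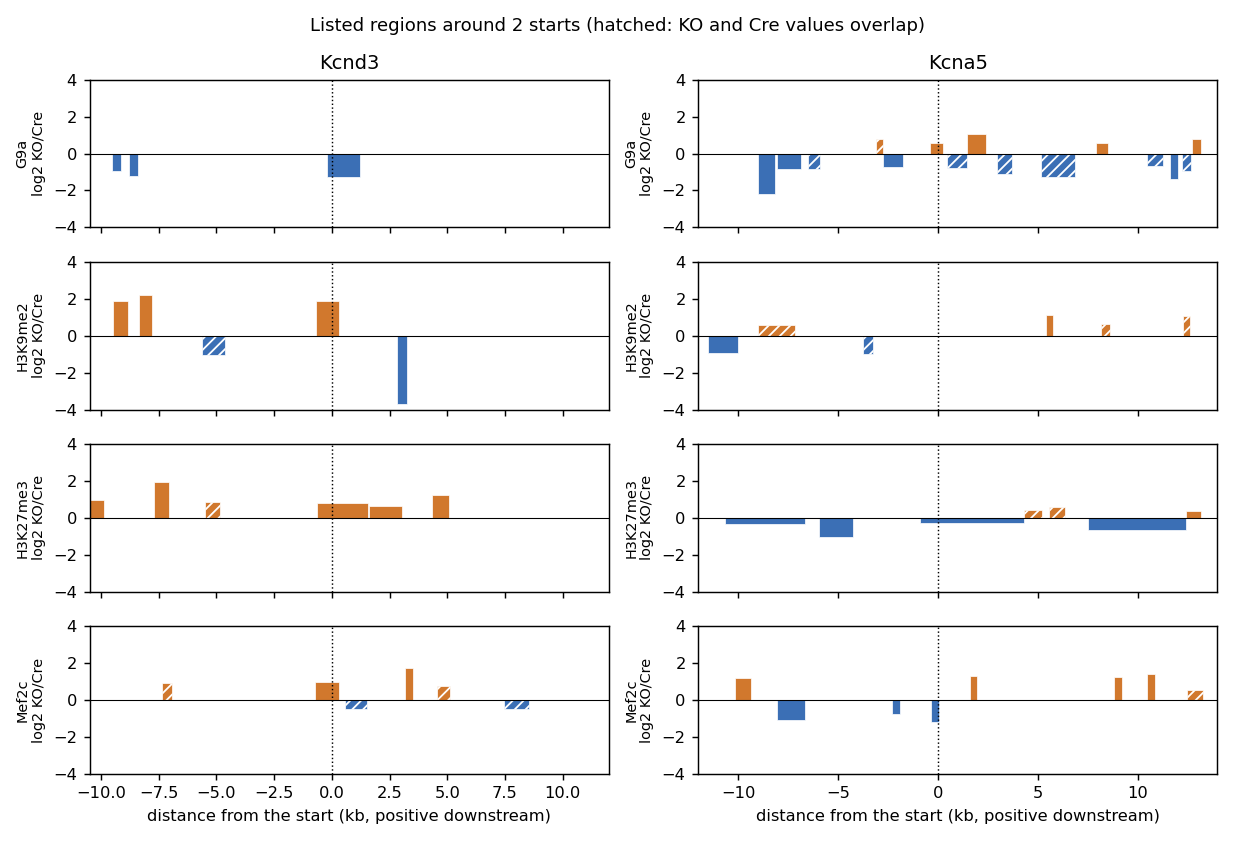
Listed regions around the starts of Kcnd3 and Kcna5, drawn to scale by distance from the start in kb, with the height giving the log2 ratio of KO over Cre for each of the 4 targets and hatching where the values of the genotypes overlap. At the Kcnd3 start G9a lies below 0 and the other targets above it, while at Kcna5 the long H3K27me3 regions lie below 0 and shorter ones above it.

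Kcna5 (gene ID 16493, chromosome 6, 126532551 to 126535555) is a short gene with no other protein-coding gene in its window. The H3K27me3 region over the whole gene (126531251 to 126536450) had 2295 and 1868 in KO, against 2519 and 2590 in Cre. The downstream region 126523151 to 126528050 had 1146 and 1348 in KO, against 1820 and 2165 in Cre, and the upstream region 126539801 to 126541500 had 249 and 349 in KO, against 611 and 603 in Cre. All 3 were lower in KO with no overlap. Of the 7 H3K27me3 regions of Kcna5, 4 were lower and 3, all shorter than those, were higher. Of the higher ones only 126522401 to 126523150 was without overlap, at 246 and 293 in KO, against 226 and 187 in Cre. In the authors' deposited list the downstream region had the highest -log10 p of the channel genes' H3K27me3 regions (36.7). Mef2c over the start (126535501 to 126535900) was 28 and 27 in KO, against 72 and 57 in Cre. G9a over the same start (126535301 to 126535950) went the other way, with 85 and 128 in KO, against 67 and 74 in Cre, as did the G9a region 126533151 to 126534100 inside the gene, with 280 and 219 in KO, against 155 and 80 in Cre. Between them the G9a region 126534101 to 126535100 was lower with overlap, at 187 and 100 in KO, against 336 and 160 in Cre. At the far end of the gene 126531851 to 126532600 was also lower with overlap, at 130 and 0 in KO, against 169 and 112 in Cre. G9a was listed over 51.1% of the window, the largest share of the 9 genes, with 10 of 15 regions lower, and its summed value of 1718.0 and 1277.0 in KO, against 2563.0 and 1740.0 in Cre, did not pass (log2 difference -0.51, SE 0.30, limma adjusted p = 0.430).

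The acetylcholine-gated subunits had listed regions over both starts. For Kcnj3 (gene ID 16519, chromosome 2, 55411798 to 55598145) the start used, 55435970, lies inside the span. Over this inner start, H3K27me3 (55435801 to 55436350) was 147 and 72 in KO, against 79 and 17 in Cre, and the genotypes overlapped, while Mef2c (55435851 to 55436700) was 210 and 184 in KO, against 72 and 162 in Cre, without overlap. Over the Kcnj5 start (gene ID 16521, chromosome 9, 32314706 to 32344380), H3K27me3 (32343601 to 32344800) was 373 and 306 in KO, against 232 and 284 in Cre, and the region just upstream (32344801 to 32345350) was 43 and 41 in KO, against 109 and 141 in Cre. These 2 neighbouring regions were each separated, in opposite directions.

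No channel gene passed the test for G9a, the protein that the floxed gene encodes. Of the 204 G9a regions, 118 (57.8%) were lower in KO, beside 61.5% of the whole list, and 136 had genotypes that did not overlap, beside 61.5%. At ventricular genes 90 of 161 were lower and at atrial genes 28 of 43. At an adjusted p under 0.05 limma called 0 of these regions, and at an unadjusted one 10, beside 0% and 6.5% of all G9a regions, and 0 of the 9 genes passed, beside 0% of all genes. Summed G9a values were lower in KO at 7 of the 9 genes, with a median log2 ratio of -0.13 beside -0.25 over all genes, and with the libraries scaled to the same median, which moved the median of all G9a regions by 0.31, 7 were higher and 2 lower. In the authors' deposited list the G9a region of the channel genes with the highest -log10 p (25.3) lay inside Kcnq1 (143335001 to 143336000), with 60 and 20 in KO, against 188 and 218 in Cre. Over Ehmt2, the targeted gene, the G9a region 34907251 to 34908750 on chromosome 17 had 67 and 106 in KO, against 410 and 353 in Cre, while 34905901 to 34906800 had 175 and 246 in KO, against 123 and 174 in Cre. The third, 34899351 to 34900050, had 73 and 74 in KO, against 157 and 75 in Cre, so that G9a over its own gene went in both directions.

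H3K9me2, the mark that G9a places, went in both directions at the channel genes. Of 360 regions, 166 (46.1%) were lower in KO, beside 39.7% of the list, and 226 were separated, beside 65.7%. By limma 0 regions passed after adjustment and 40 before it, beside 0% and 11.1%, and 0 of the 9 genes passed, beside 7.72% of all genes. Summed values were higher in KO at 7 of 9 genes, with a median log2 ratio of 0.07 beside 0.22 over all genes. Scaling moved the median of all H3K9me2 regions by -0.29 and turned the channel genes to 1 higher and 8 lower and the calls over all genes to 217 higher and 704 lower, against 1512 higher and 90 lower as deposited. Kcnd3 then passed as lower (log2 difference -0.48, limma adjusted p = 0.0215). Kcnj5 was the lowest, with 381.0 and 306.0 in KO, against 600.0 and 527.0 in Cre, and a log2 difference of -0.72 (SE 0.39, limma adjusted p = 0.240). All 5 of its regions were lower, and the genotypes overlapped at each of them. The region with the highest -log10 p lay in a transient outward gene. Inside Kcnd2 (gene ID 16508, chromosome 6, 21215346 to 21729805) the region 21544401 to 21546100 had 350 and 444 in KO, against 51 and 87 in Cre, with a -log10 p of 53.5 in the authors' deposited list. Beside Kcnip2 (gene ID 80906, chromosome 19, 45792346 to 45816422) the region 45824551 to 45825500, which lies within the neighbouring gene Armh3, had 65 and 6 in KO, against 303 and 213 in Cre, with a -log10 p of 40.2 in the authors' deposited list.

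**Figure D4:**
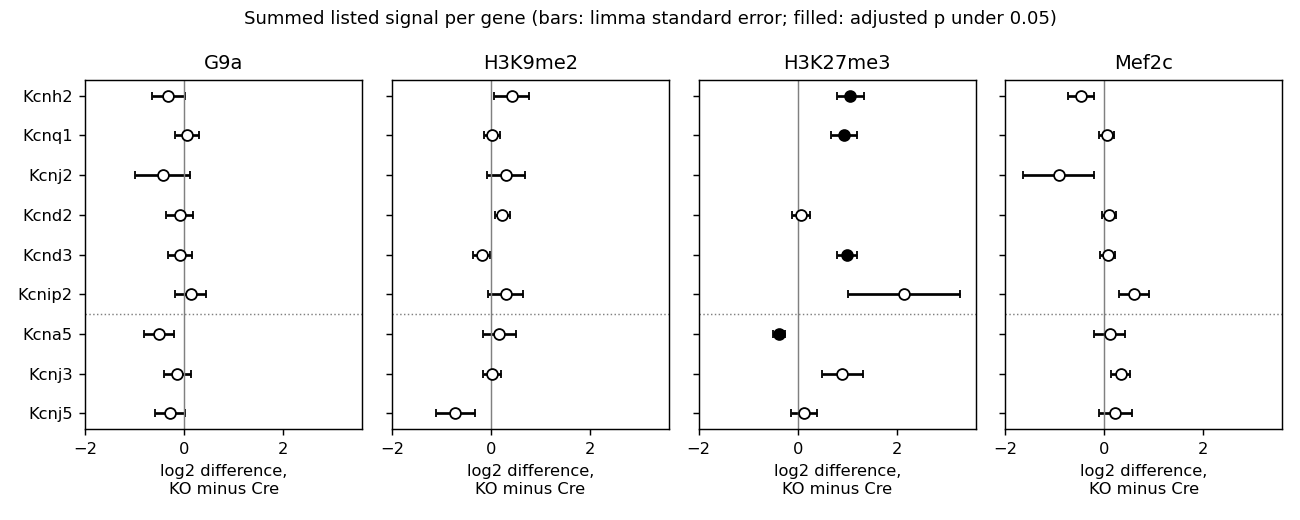
Log2 difference (KO minus Cre) of the summed listed value of each gene for the 4 targets, with the limma standard error as bars, filled where the adjusted p was under 0.05, and ventricular genes above the dotted line. The filled points are Kcnh2, Kcnq1, Kcnd3 and Kcna5 for H3K27me3, and no gene is filled for G9a, H3K9me2 or Mef2c.

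Mef2c was lower in KO at 122 of 257 regions (47.5%), beside 61.7% of its list, and 152 were separated, beside 65.9%. At ventricular genes 109 of 220 were lower and at atrial genes 13 of 37. By limma 0 regions passed after adjustment and 16 before it, beside 0% and 11.3%, and 0 of the 9 genes passed, beside 11.1% of all genes. Summed values were higher in KO at 7 of 9 genes, as deposited and scaled, with a median log2 ratio of 0.08 beside -0.26 over all genes, and scaled Kcnd2 and Kcnj3 passed as higher. Scaling moved the median of all Mef2c regions by 0.33 and turned the calls over all genes to 461 higher and 115 lower, against 123 higher and 2160 lower as deposited. Kcnj2 (gene ID 16518, chromosome 11, 111066164 to 111076825) was the lowest, and its region 111072001 to 111072550 had 28 and 9 in KO, against 143 and 117 in Cre. The other of its 2 regions, 111067901 to 111068250, was higher without overlap, at 52 and 65 in KO, against 40 and 0 in Cre. Kcnip2 had the highest ratio, and yet Mef2c just upstream of its start (45816151 to 45816900) was 75 and 67 in KO, against 171 and 86 in Cre. Inside Kcnd2, 4655 to 5704 bases past the start, the region 21220001 to 21221050 had 228 and 432 in KO, against 127 and 34 in Cre, with a -log10 p of 34.3 in the authors' deposited list. The Mef2c region within 2 kb of that start (21212951 to 21213550) was lower with overlap, at 5 and 119 in KO, against 17 and 171 in Cre.

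**Figure D5:**
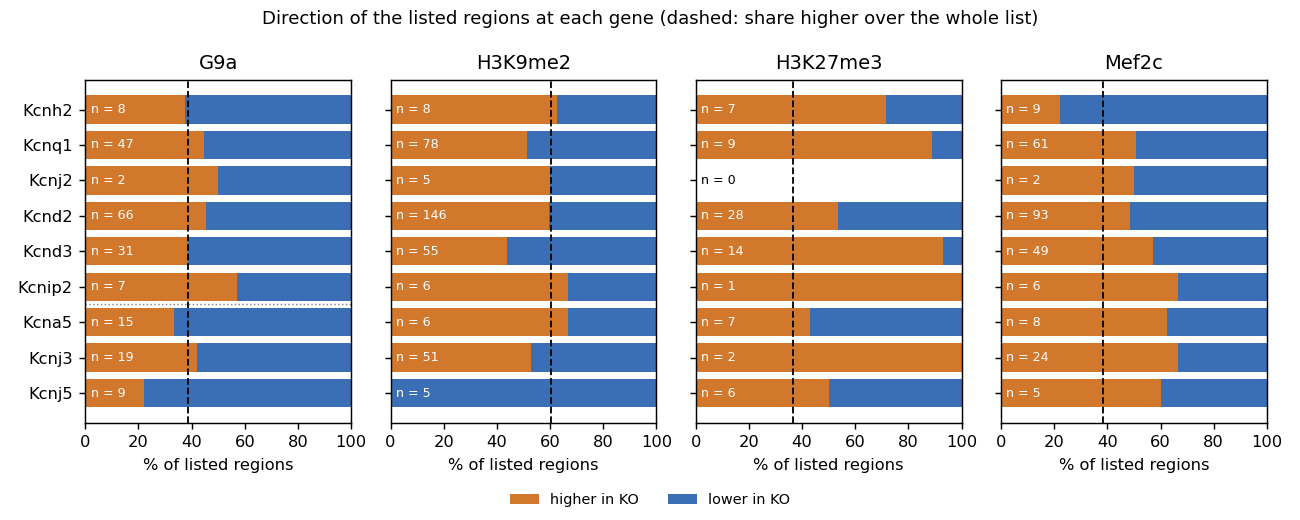
Share of the listed regions of each gene that were higher (left) or lower (right) in KO, with the number of regions in each bar and a dashed line at the share higher over the whole list. For H3K27me3, 13 of 14 regions of Kcnd3 and 8 of 9 of Kcnq1 were higher, and Kcnj2 had no region.

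Other potassium channel genes of the heart were set beside these, as a list of 29 genes all of which had regions in the 4 lists. By limma 6 of the 29 rose and 6 fell for H3K27me3, beside 1.68% and 17.6% of all genes. For H3K9me2, 2 rose and 0 fell, beside 1512 and 90 of 20746 genes. For Mef2c, 0 rose and 6 fell, beside 123 and 2160 of 20566 genes. For G9a 0 changed, beside 0% of all genes. These calls use the values as deposited. With scaled libraries the sum was higher at 21 of the 29 for H3K27me3 and at 18 for Mef2c, against 16 and 5 as deposited. Kcnj11, the pore of the ATP-sensitive channel, had summed H3K27me3 values of 513 and 481 in KO, against 206 and 171 in Cre (log2 difference 1.40, limma adjusted p = 0.0259). That sum rests on 2 listed regions that cover 2.1 kb. Dpp10, an accessory subunit of transient outward channels, had 10555 and 13754 in KO, against 19040 and 18247 in Cre (log2 difference -0.63, limma adjusted p = 0.00317), and Kcnk2, a stretch-sensitive leak channel, had 11709 and 10270 in KO, against 15720 and 16104 in Cre (log2 difference -0.54, limma adjusted p = 0.00427). Kcne3, an accessory subunit of Kcnq1, fell for Mef2c, with 764 and 654 in KO, against 1396 and 1064 in Cre (log2 difference -0.79, limma adjusted p = 0.0419).

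Across the 4 targets, the genes with the pattern most like that of Kcnd3 were Npc1, Pgm5 and Nadk, by the distance between summed log2 ratios among 18278 genes with regions in all lists. Those most like Kcnh2 were Dsc2, Apobec4 and Epha7, and those most like Kcna5 were Gpalpp1, Slc39a8 and Stk25. Any gene has nearest genes by this distance, and the likeness was not tested. At Kcnd3, Kcnh2 and Kcna5 only H3K27me3 passed the test as deposited. With 1 value left out, the H3K9me2 log2 difference of Kcna5 ran from -0.39 to 0.73.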

How the data were processed

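BWA 0.7.10-r789 and SAMtools 1.1 are the tools, and mm10 (GRCm38) the build, named per the submitters' processing notes. The authors deposited 1 list of differential regions per target (G9a, H3K9me2, H3K27me3, Mef2c), each row with a position, a sign, 2 Cre and 2 KO values and a -log10 p in 1 cell; the deposited values and score are of a scale that is not given, and the sources used here name no caller, normalization or use of input. The value order (Cre, then KO) follows the list names and the labels, and no value is tied to a replicate number. Every listed plus sign went with lower KO values and every minus sign with higher ones, and the lowest -log10 p was 2 in each list. The design text names H3K27me2 where the labels name H3K27me3, which is used here.

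Regions were assigned to genes of RefSeq (GRCm38.p6) by overlap with the span or 10 kb either side, and listed values were summed per gene. Log2 ratios used a pseudocount of 1. With limma 3.58.1 (R 4.3.3), moderated fits with a mean-variance trend were made per target on log2(value + 1), over all regions and over all genes, with Benjamini-Hochberg adjustment at 0.05. The step was also run on simulated data with larger changes and no picking of differing regions, so that check does not speak for the calls given here. Because only regions picked as different are listed, the p-values come out too small and only set members against the spread between libraries. The exact two-sided p for 2 against 2 cannot go under 0.333. The design text calls the libraries of a group biological replicates; the depth is unknown. The genes, lists and tests were chosen with earlier results of these data known. All 9 genes are named, with each gene's region of highest -log10 p or nearest its ends; some other regions were chosen after their values were seen. Of the 29 further channel genes, those with the lowest and highest ratios per target qualify for naming.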

Additional observations from a re-analysis of the deposited data

How the results depend on the processing

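Each value was recomputed with libraries scaled to the same median, other windows, a stricter -log10 p, at least 50% of a region inside the window, a pseudocount of 10 and each of the 4 values left out; the minimum mean value of 20 removed no region, and 100 was chosen in its place after seeing the data. No paired analysis was possible because the values carry no replicate number. Where 1 value is left out, the lone value is assumed to vary like the others. Over all alternatives the share of regions lower in KO ran from 50.5% (with a minimum -log10 p of 5) to 61.3% for G9a, 42.2% to 49.3% for H3K9me2, 23.9% to 37.8% for H3K27me3 and 42.0% to 52.1% for Mef2c. At that -log10 p the share of regions with non-overlapping values was 80.4% (G9a), 82.9% (H3K9me2), 80.4% (H3K27me3) and 82.9% (Mef2c); scaled it was 58.8% for G9a, and with a mean value of at least 100 it was 77.8% for H3K27me3. With 1 value left out, which by construction leaves fewer orderings, it was 78.9% to 89.7% for G9a, 78.6% to 86.4% for H3K9me2, 79.7% to 85.1% for H3K27me3 and 75.5% to 82.1% for Mef2c. Channel genes called by limma numbered 4 for H3K27me3, against 2 with the gene span alone and 0 to 3 with 1 value left out; 0 for H3K9me2, against 1 scaled (Kcnd3) and 0 to 1; and 0 for Mef2c, against 2 scaled (Kcnd2 and Kcnj3) and 0 to 1. Member regions called for G9a numbered 0, against 0 to 19 with 1 value left out.

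The sign of a gene's log2 difference turned at the following values, none of them called by limma before or after, and the cause was not tested. Scaled, G9a was 0.0015 at Kcnh2, 0.23 at Kcnd2, 0.24 at Kcnd3, 0.19 at Kcnj3 and 0.029 at Kcnj5. Scaled, H3K9me2 was -0.27 at Kcnq1, -0.065 at Kcnd2, -0.12 at Kcna5 and -0.28 at Kcnj3. With the gene span alone, G9a was -0.071 at Kcnq1 and -0.15 at Kcnip2. With the gene span alone, Mef2c was -0.36 at Kcnj5. With 2 kb either side, H3K27me3 was -0.0029 at Kcnj5. With 2 kb either side, G9a was -0.071 at Kcnq1 and -0.15 at Kcnip2. With 2 kb either side, Mef2c was -0.24 at Kcna5 and -0.36 at Kcnj5. With a minimum -log10 p of 5, H3K27me3 was -0.0074 at Kcnj5. With a minimum -log10 p of 5, G9a was 0.19 at Kcnd3 and 0.24 at Kcnj3. With a minimum -log10 p of 5, H3K9me2 was -0.93 at Kcna5. With a minimum -log10 p of 5, Mef2c was -0.14 at Kcnd3 and -0.017 at Kcna5. With a minimum mean value of 100, H3K27me3 was -0.014 at Kcnd2. With a minimum mean value of 100, G9a was 0.078 at Kcnd2, 0.42 at Kcnd3, -0.48 at Kcnip2, 0.20 at Kcnj3 and 0.20 at Kcnj5. With a minimum mean value of 100, H3K9me2 was -0.018 at Kcnq1, -0.65 at Kcnj2, -0.0081 at Kcna5 and -0.34 at Kcnj3. With a minimum mean value of 100, Mef2c was 0.0091 at Kcnh2 and -0.023 at Kcna5. With 1 value left out, the H3K27me3 range was -0.20 to 0.34 at Kcnd2 and -0.12 to 0.40 at Kcnj5. With 1 value left out, the G9a range was -0.076 to 0.18 at Kcnq1, -1.02 to 0.16 at Kcnj2, -0.41 to 0.23 at Kcnd2 and -0.10 to 0.36 at Kcnip2. With 1 value left out, the H3K9me2 range was -0.041 to 0.88 at Kcnh2, -0.072 to 0.12 at Kcnq1, -0.065 to 0.68 at Kcnj2, -0.012 to 0.61 at Kcnip2, -0.39 to 0.73 at Kcna5 and -0.10 to 0.13 at Kcnj3. With 1 value left out, the Mef2c range was -0.11 to 0.31 at Kcnd2, -0.16 to 0.29 at Kcnd3 and -0.21 to 0.42 at Kcna5.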

Other observations

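Listed regions of different targets overlapped at the channel genes. Of the 74 H3K27me3 regions, 28 (37.8%) touched a Mef2c region, and 32 of the 257 Mef2c regions (12.5%) touched an H3K27me3 region. Over the whole lists these shares were 42.6% and 41.1%. Of the 33 touching pairs at the channel genes 14 (42.4%) were higher and 8 (24.2%) lower in KO for both targets, beside 14.2% and 46.0% of the pairs over the whole lists, where H3K27me3 and Mef2c regions were mostly lower. G9a and H3K9me2 regions touched in 87 pairs, of which 31 (35.6%) were lower for G9a and higher for H3K9me2 and 9 (10.3%) the reverse, close to the 35.6% and 11% over the whole lists. Kcna1 and Kcna6, which lie next to Kcna5 on chromosome 6 and encode channels of the same family, are outside its window. Kcna1 had summed G9a values of 1408 and 796 in KO, against 1862 and 1672 in Cre (log2 difference -0.74, limma adjusted p = 0.352).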
